A study of Rattus norvegicus with 8 samples.

Results

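The genes described here are 10 members of Toll-like receptor and NF-κB signaling: the receptors Tlr2, Tlr4, Tlr7 and Tlr8, the adaptor Myd88, the NF-κB subunits Nfkb1 and Rela, the inhibitors Nfkbia and Tnfaip3, and the cytokine Tnf. They were picked by name from the gene symbols of the 8 count files, and all 10 were found among 32623 listed genes. RNA came from the outflow vein of rats with an arteriovenous fistula, in which the epigastric vein had been joined to the femoral artery and wrapped in a nanofiber scaffold. In the BAPN group (n = 4, rats 1 to 3 female and rat 4 male) the scaffold carried β-aminopropionitrile, an irreversible inhibitor of the collagen crosslinking enzyme lysyl oxidase. In the vehicle group (n = 4, rats 1 and 2 female and rats 3 and 4 male) it carried no drug. Both groups therefore shared the surgery and the scaffold, and all rats were Sprague Dawley rats sacrificed at 21 days. Their age is not given in the sources used here.

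Toll-like receptors recognize microbial products and molecules from damaged cells. TLR2 and TLR4 sit at the cell surface and bind lipoproteins and lipopolysaccharide, whereas TLR7 and TLR8 read single-stranded RNA in endosomes. All 4 signal through MyD88 to the IκB kinase complex, which marks IκBα for degradation and frees NF-κB dimers such as p50 with RelA. NF-κB then induces cytokines, adhesion molecules and its own inhibitors, among them IκBα (Nfkbia) and A20 (Tnfaip3). In the vessel wall these proteins are made by macrophages and also by endothelial, smooth muscle and adventitial cells.

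The sequence bases of this circuit can be read in the promoters, taken from RefSeq on the rat assembly GRCr8 as windows from 250 bases before to 50 bases after each start site. All 10 members had such a window. A match to the NF-κB consensus on either strand was found in 7.51% of 33469 promoter windows and in those of 4 members, namely Nfkb1, Nfkbia, Tlr2 and Tnfaip3. The core of interferon regulatory factor sites, the letters GAAA repeated after a spacer of any 2 bases, was found in 3.92% of the windows and in that of Myd88. The 250 bases upstream are printed for the 4 members whose match lay before the start site, 5′ to 3′ on the minus strand that all 4 genes use, with the matches in capitals. They are chr6:78597073-78597322 for Nfkbia, chr1:15543980-15544229 for Tnfaip3, chr2:171504558-171504807 for Tlr2 and chr8:127956231-127956480 for Myd88. A match describes letters only, and binding was not measured.
Nfkbia: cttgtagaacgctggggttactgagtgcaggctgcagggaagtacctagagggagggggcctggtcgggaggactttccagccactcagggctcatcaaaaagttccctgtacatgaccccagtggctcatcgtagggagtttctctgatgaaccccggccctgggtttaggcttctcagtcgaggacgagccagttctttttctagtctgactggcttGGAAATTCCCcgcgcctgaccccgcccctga
Tnfaip3: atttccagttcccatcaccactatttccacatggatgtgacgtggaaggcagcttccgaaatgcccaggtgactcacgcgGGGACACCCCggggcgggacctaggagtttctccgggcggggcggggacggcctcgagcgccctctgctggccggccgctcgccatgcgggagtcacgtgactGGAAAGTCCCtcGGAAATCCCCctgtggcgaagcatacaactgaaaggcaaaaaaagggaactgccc
Tlr2: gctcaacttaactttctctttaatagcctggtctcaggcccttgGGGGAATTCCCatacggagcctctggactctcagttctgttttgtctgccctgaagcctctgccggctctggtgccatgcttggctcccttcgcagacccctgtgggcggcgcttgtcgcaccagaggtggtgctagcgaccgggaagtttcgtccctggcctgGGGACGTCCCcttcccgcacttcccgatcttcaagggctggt
Myd88: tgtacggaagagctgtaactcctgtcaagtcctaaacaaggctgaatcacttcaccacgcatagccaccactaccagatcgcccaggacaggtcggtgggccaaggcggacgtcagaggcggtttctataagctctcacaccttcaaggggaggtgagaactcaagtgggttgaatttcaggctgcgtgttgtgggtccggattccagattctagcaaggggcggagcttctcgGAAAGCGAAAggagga
In Tnfaip3 the 3 matches began 170, 67 and 55 bases before the start, and in Nfkbia the match began 31 bases before it. Tlr2 held a pair of overlapping matches that began 206 and 205 bases upstream and another that began 42 bases upstream. The Nfkb1 match lay downstream, from base 4 to base 13 after the start. In Myd88 the match to the repeated GAAA began 16 bases before the start.

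Sequencing was deeper in the BAPN group, with 45039451 to 52241007 counts per library, than in the vehicle group, with 19548203 to 22442050, so library depth and treatment cannot be told apart. With all libraries thinned to equal totals edgeR called 0 of the members described below, beside 16.5% of all genes. Levels are therefore given as CPM, counts relative to library size, scaled by the trimmed mean of M-values (TMM), a level within a gene across rats and not a comparison between genes. The vein wall was recognizable in every library, since the summed endothelial markers reached 433 to 555 CPM with BAPN and 684 to 1428 CPM with vehicle, and the summed smooth muscle markers 1622 to 4135 CPM and 3096 to 5826 CPM. Macrophage markers (11 genes, none at 0) summed to 3989 to 5199 CPM with BAPN and 2849 to 4453 CPM with vehicle. The groups overlapped on that sum (exact two-sided permutation test, p = 0.0857). In such bulk tissue fewer cells of a type and less RNA per cell cannot be told apart.

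No member passed the test in the comparison of BAPN with vehicle. Of the 9 members with a base mean of at least 100 counts, 0 reached a false discovery rate (FDR) below 0.05 in the edgeR quasi-likelihood test, against 16.8% of all 11682 genes tested (7.5% higher and 9.25% lower with BAPN). At an unadjusted p below 0.05 there were 3 members, Tlr7, Myd88 and Rela, where the share over all genes was 35.8%. DESeq2 called the same 3 genes at an FDR below 0.05, and 27.4% of all genes. With sex as a covariate DESeq2 called 1 member, Rela, and 21.5% of all genes. The groups did not overlap for 2 members, Myd88 and Rela, against 24.7% of all genes. Of the 9 members, 6 had a higher and 3 a lower fitted level with BAPN, with a median log2 fold change of 0.16 beside 0.02 over all genes.

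**Figure D1:**
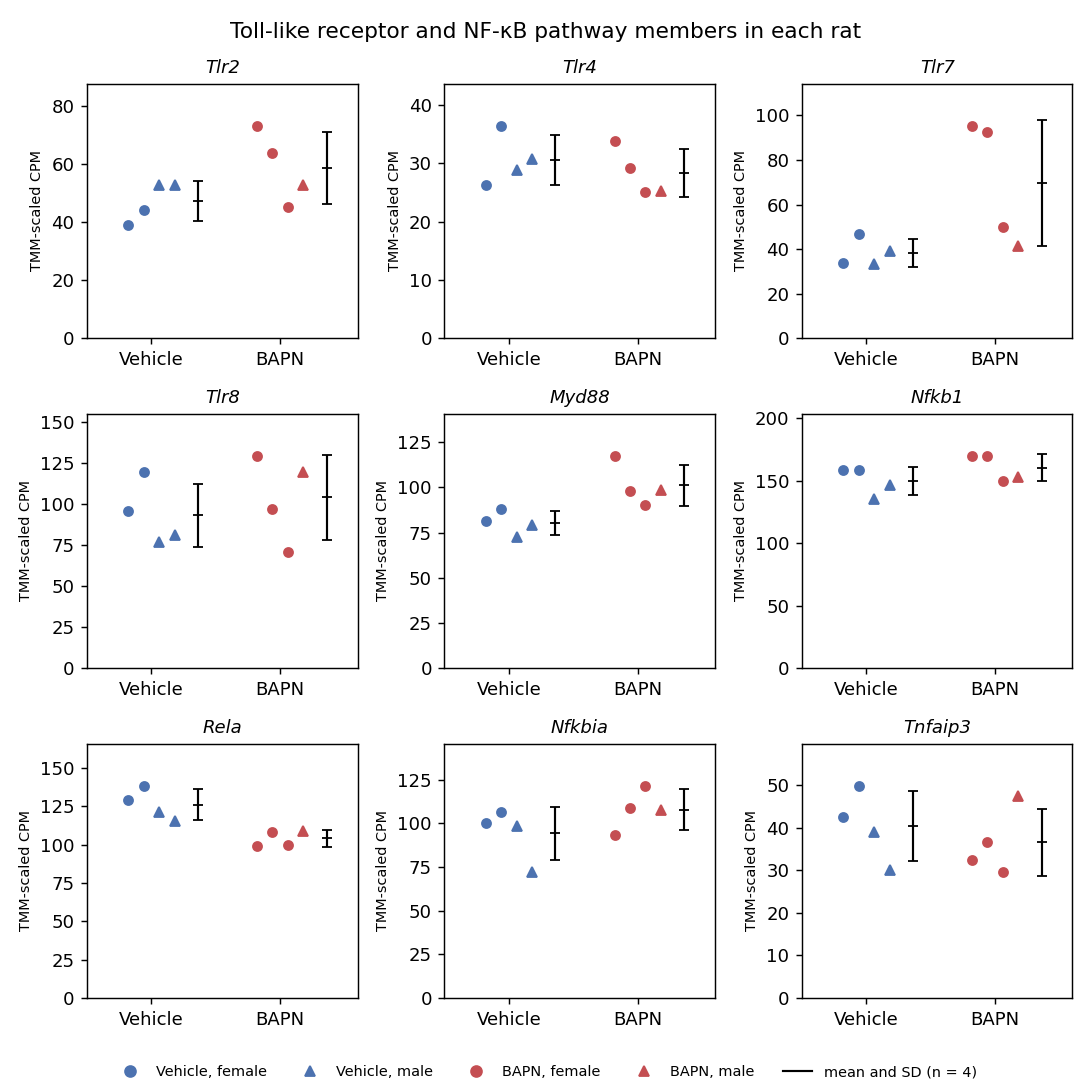
Level of the 9 tested members in each rat, in TMM-scaled CPM on axes from 0. Circles are female and triangles male rats, and black bars are the mean and SD of 4 rats. The groups stood apart for Myd88 (BAPN lowest 90.4, vehicle highest 88.2) and Rela (BAPN highest 109, vehicle lowest 116), and Tlr7 was high in 2 BAPN females.

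Among the receptors, Tlr7 had the largest fitted difference of the 4 receptors, with high levels in a pair of BAPN rats. Tlr7 (ENSRNOG00000004249) was measured at 95.3, 92.7, 49.8 and 41.2 CPM in BAPN rats 1 to 4 and at 33.9, 46.5, 33.3 and 39.0 CPM in vehicle rats 1 to 4. BAPN rats 1 and 2 lay far above all others, and BAPN rat 4 lay inside the vehicle range. The fitted log2 fold change was 0.87 (SE 0.29). The FDR was 0.0568 by edgeR and 0.0175 by DESeq2. Without BAPN rat 4 the gene passed the edgeR test (log2 fold change 1.05, FDR 0.0389), and over the other single omissions the FDR reached 0.134. In those 2 rats the keratinocyte markers summed to 21.8 and 24.5 CPM, against 0.738 to 5.24 CPM in the other 6, and their part in the Tlr7 level was not tested. Most of that sum was Dsg3 (19.1 and 13.6 CPM) and, in BAPN rat 2, Krt5 (8.07 CPM). Krt10 was at 1.12 and 1.26 CPM in those rats and at up to 4.61 CPM with vehicle, and Krt1 at 0.248 and 0 CPM and at up to 0.809 CPM. Both rats were female, and with sex as a covariate the difference was 0.70 (FDR 0.123). Among females the mean was 79.2 CPM with BAPN and 40.2 CPM with vehicle, while the single BAPN male stood at 41.2 CPM beside a mean of 36.2 CPM in the vehicle males.

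Tlr8, the neighboring single-stranded RNA receptor in function, did not share this pattern of levels. It stood at 129, 96.9, 70.8 and 119.5 CPM with BAPN against 95.7, 119, 77.0 and 80.9 CPM with vehicle. These ranges lay across each other. The log2 fold change was 0.16 (SE 0.21, edgeR FDR 0.602), with a 95% interval from −0.33 to 0.61, and it was 0.04 to 0.31 on leaving out single rats and −0.12 among females alone. No test compared Tlr8 with Tlr7.

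Of the surface receptors neither passed the test. Tlr2, the lipoprotein receptor, was at 73.1, 63.7, 45.1 and 52.6 CPM in the BAPN rats and at 39.0, 44.3, 52.7 and 52.8 CPM in the vehicle rats. BAPN rats 1 and 2 were again the highest and the other 2 BAPN rats lay within the vehicle range. The log2 fold change was 0.31 (SE 0.17, edgeR FDR 0.212), and 0.19 to 0.42 on leaving out single rats. Tlr4, the lipopolysaccharide receptor, was at 33.9, 29.2, 25.1 and 25.2 CPM in the BAPN rats and at 26.2, 36.4, 28.9 and 30.8 CPM in the vehicle rats, with groups that overlapped. Its log2 fold change was −0.11 (SE 0.15, edgeR FDR 0.616), and the 95% interval ran from −0.43 to 0.22. Leaving out single rats moved it between −0.21 (without BAPN rat 1) and −0.014 (without vehicle rat 2).

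The shared adaptor Myd88 (ENSRNOG00000013634) was higher in TMM-scaled CPM in every BAPN rat than in any vehicle rat, without passing the edgeR test. It was measured at 117, 98.0, 90.4 and 98.5 CPM with BAPN against 81.3, 88.2, 72.5 and 79.0 CPM with vehicle. The gap between the groups was 2.22 CPM, smaller than the SD of either group (11.5 CPM with BAPN and 6.46 CPM with vehicle). The log2 fold change was 0.33 (SE 0.11). The FDR was 0.0666 by edgeR and 0.0451 by DESeq2. The exact permutation test of its level gave p = 0.0286, the lowest value that the 70 arrangements of 4 against 4 allow, and p = 0.0857 when levels were scaled by total counts alone.

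Rela (ENSRNOG00000030888), which encodes the transactivating p65 subunit, was lower in every BAPN rat than in any vehicle rat. Its levels were 99.2, 108, 99.5 and 109 CPM with BAPN against 129, 138, 121 and 116 CPM with vehicle. The rats of each group lay close together, with an SD of 5.36 CPM around a mean of 104 CPM with BAPN and of 9.88 CPM around 126 CPM with vehicle. The log2 fold change was −0.28 (SE 0.10), with an edgeR FDR of 0.0785, a DESeq2 FDR of 0.0191 and a DESeq2 FDR of 0.0395 with sex as a covariate, a setting chosen after seeing the data. The exact permutation p was 0.0286, among 9 such tests over the members. Leaving out any single rat kept the difference between −0.32 and −0.23, with an edgeR FDR from 0.0824 to 0.169.

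Nfkb1, which encodes the p105 precursor of the p50 partner subunit, was at 170, 169, 149.7 and 153 CPM with BAPN. In the vehicle group it was at 159, 158, 135 and 146 CPM. The groups overlapped, and in both of them rats 1 and 2 were the higher pair. Its log2 fold change was 0.10 (SE 0.10, edgeR FDR 0.515), with a 95% interval from −0.14 to 0.33.

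The inhibitors, whose promoters carry the NF-κB matches printed above, did not pass the test, and the groups overlapped for both. Nfkbia was at 93.0, 109, 121 and 108 CPM with BAPN against 99.98, 106, 98.3 and 72.3 CPM with vehicle. Vehicle rat 4 was the lowest of the 8, and the remaining vehicle rats lay within the BAPN range. The log2 fold change was 0.19 (SE 0.15, edgeR FDR 0.342), and 0.09 to 0.26 on leaving out single rats. Tnfaip3, a ubiquitin-editing enzyme that shuts off the pathway, was at 32.5, 36.7, 29.6 and 47.5 CPM with BAPN against 42.6, 49.8, 39.1 and 30.0 CPM with vehicle. The BAPN male was the highest of its group and vehicle rat 4 the lowest of the other. The log2 fold change was −0.14 (SE 0.19, edgeR FDR 0.615), and the 95% interval from −0.57 to 0.29 did not settle its direction. It moved between −0.29 (without BAPN rat 4) and −0.025 (without vehicle rat 2) on leaving out single rats and was −0.49 among females alone (edgeR FDR 0.134).

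Tnf, the cytokine that both activates NF-κB and is induced by it, was close to undetected. It had 1, 3, 3 and 2 reads in BAPN rats 1 to 4 and 0, 2, 1 and 1 reads in vehicle rats 1 to 4. All 8 values lay at or below the limit of 3 reads that a count of 0 allows, which corresponds to 0.0589 to 0.148 CPM across the libraries. A difference was therefore not detectable at this depth, and no fold change is given.

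The treatment by sex interaction was called in 0 of the 9 members and in 0 of 11682 genes by edgeR, with 1 member and 1442 genes at an unadjusted p below 0.05. With only 1 BAPN male, that rat was assumed to vary like the others.

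**Figure D2:**
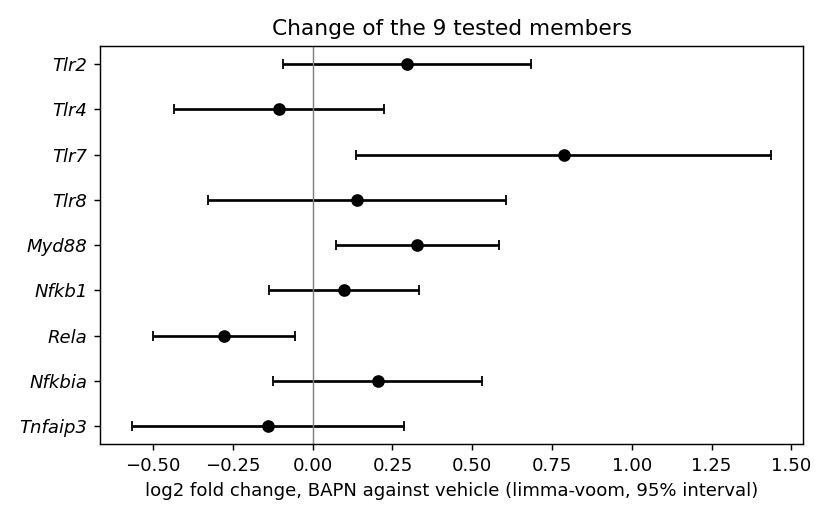
Log2 fold change of BAPN against vehicle for the 9 tested members, as fitted by limma-voom, with unadjusted 95% intervals from 4 rats per group. The intervals of Tlr7 (0.14 to 1.44), Myd88 (0.07 to 0.58) and Rela (−0.50 to −0.05) lie to 1 side of 0 and the other 6 cross it.

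The wider pathway was read from a separate list of 82 genes in 7 roles. It holds the members' partners and leaves out the members themselves. Of the 82 genes, 78 were in the files and 73 were tested. In that list 12 genes (16.4%) passed the edgeR test, close to the 16.8% of all genes. By direction, 10 (13.7%) rose and 2 (2.74%) fell, beside 7.5% and 9.25% of all genes. More of the list than of all genes had a higher fitted level with BAPN (52 of 73, 71.2%, against 51.6%), and the median log2 fold change was 0.20 beside 0.02. These counts describe the list and no test of it was made. By role, 7.69% to 22.2% of the 5 to 14 tested genes were called, beside 16.8% of all genes. The groups did not overlap for 15.4% to 33.3% of the genes of a role, beside 24.7% of all genes. The count of 12 rested on single rats, since it was 0 without vehicle rat 1, 1 without BAPN rat 2, 2 without BAPN rat 3 or vehicle rat 4, 3 without vehicle rat 3, 5 without BAPN rat 4 and 6 without BAPN rat 1, but 16 without vehicle rat 2. The share of all 11682 genes called moved as well, to 3.4% without vehicle rat 1, 10.5% without BAPN rat 2, 6.38% without BAPN rat 3, 8.24% without vehicle rat 4, 10.4% without vehicle rat 3, 7.76% without BAPN rat 4, 11.4% without BAPN rat 1 and 19.0% without vehicle rat 2. With sex as a covariate in edgeR the list had 1 call, Sod2, beside 7.96% of all genes, and with the same covariate in DESeq2 it had 15 calls (12 higher and 3 lower) beside 21.5%. Among females alone it also had 1 call, Il1b, beside 0.762% of all genes. With the replicate number as a block Sod2 alone was called, beside 4.76% of all genes. Scaling by total counts left 5 calls beside 14.3% of all genes, and without a filter on low counts 7 of 78 genes were called beside 7.54%. DESeq2 called 20 of the 73, the same share as of all genes. Over 18 alternative settings, the calls of the 12 genes were lost in 4 (Sod2) to 15 (Ticam2). After Ticam2 the calls most often lost were Map3k8 (14), Tlr9 (12) and Icam1 (12).

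**Figure D3:**
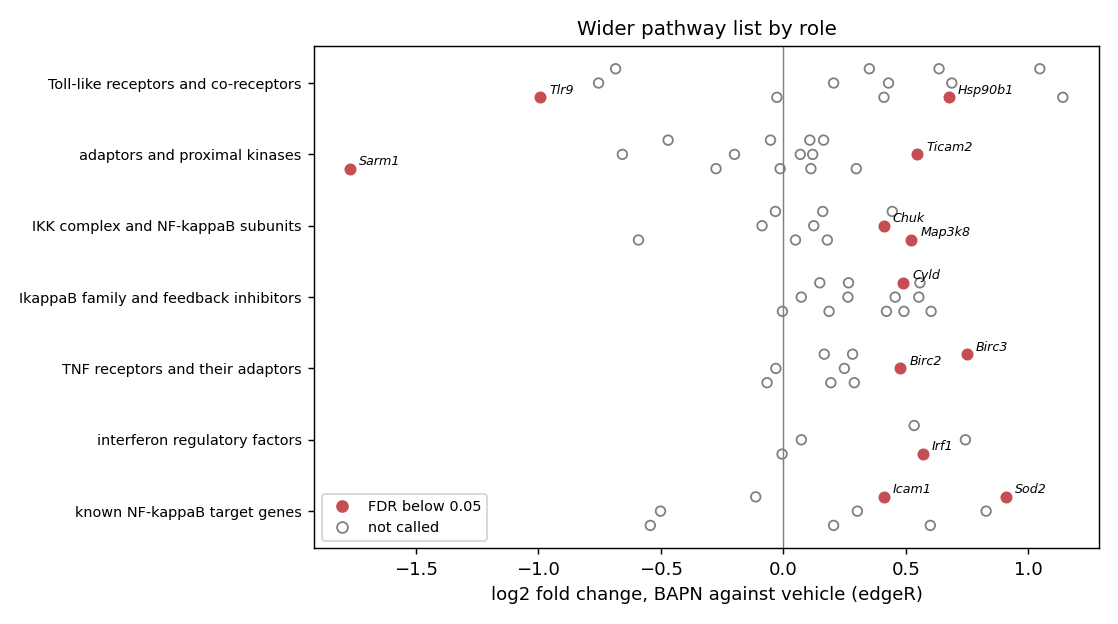
Log2 fold change (edgeR) of the 73 tested genes of the wider list, which leaves out the members, grouped by role. Genes at an FDR below 0.05 are in filled red and the others are open circles. Of the 12 called genes 10 lie to the right of 0, and Sarm1 (−1.77) and Tlr9 (−0.99) to the left.

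Among 13 tested receptors and co-receptors besides Tlr2, Tlr4, Tlr7 and Tlr8, 1 rose, 1 fell and 11 did not pass the test. The gene that rose, Hsp90b1, encodes the endoplasmic reticulum chaperone gp96 that folds Toll-like receptors and many integrins. It was at 814, 872, 792 and 722 CPM with BAPN against 579, 484, 405 and 538 CPM with vehicle, every BAPN rat being above every vehicle rat (log2 fold change 0.67, SE 0.15, edgeR FDR 0.0230). Tlr9, the receptor for unmethylated CpG DNA, fell, at 9.09, 5.73, 3.44 and 7.003 CPM against 10.9, 12.7, 11.1 and 15.6 CPM. Its groups did not overlap either (log2 fold change −0.99, SE 0.29, edgeR FDR 0.0429). Cd14 and Lbp, which hand lipopolysaccharide to TLR4, are named here after their values were seen. Cd14 averaged 315 ± 101 CPM with BAPN against 143 ± 71.5 CPM with vehicle (SD, n = 4; log2 fold change 1.14, edgeR FDR 0.0554), and Lbp 245 ± 157 CPM and 119 ± 38.0 CPM (1.05, edgeR FDR 0.0987), so that neither passed.

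Of 14 tested adaptors and proximal kinases besides Myd88, 1 rose and 1 fell. Ticam2, the bridging adaptor TRAM that TLR4 uses in endosomes, was at 19.5, 16.7, 19.4 and 22.9 CPM with BAPN against 12.2, 16.6, 13.5 and 11.4 CPM with vehicle. BAPN rat 2 and vehicle rat 2 nearly touched (log2 fold change 0.55, SE 0.17, edgeR FDR 0.0489). Sarm1, an adaptor with NAD-cleaving activity that is best known from neurons, was at 2.46, 1.63, 0.276 and 1.75 CPM with BAPN against 5.87, 3.89, 5.32 and 5.80 CPM with vehicle (−1.77, SE 0.55, edgeR FDR 0.0472). All BAPN values of Sarm1 were lower. Tab2, an adaptor of TAK1, averaged 117 ± 7.87 and 107 ± 6.97 CPM (edgeR FDR 0.402).

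Of 10 tested genes of the IκB kinase complex and NF-κB subunits besides Nfkb1 and Rela, 2 rose and 0 fell. Chuk, the catalytic kinase IKKα, was at 32.5, 37.0, 36.3 and 35.3 CPM with BAPN against 24.6, 27.6, 26.9 and 27.3 CPM with vehicle. The groups stood clearly apart (log2 fold change 0.41, SE 0.10, edgeR FDR 0.0268). Map3k8, the kinase TPL2 held by p105, was at 27.96, 21.3, 23.7 and 22.1 CPM against 13.7, 20.3, 16.1 and 16.0 CPM (0.52, SE 0.16, edgeR FDR 0.0473), with vehicle rat 2 just under the BAPN range. Ikbkb, which encodes IKKβ, had a log2 fold change of 0.12 (edgeR FDR 0.580).

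Of 13 tested IκB proteins and feedback inhibitors besides Nfkbia and Tnfaip3, 12 had a higher fitted level with BAPN, but only Cyld passed. That is 92.3%, beside 51.6% of all genes. Cyld, a deubiquitinase that trims the chains on which the kinase complex assembles, was at 25.5, 27.4, 25.6 and 27.6 CPM with BAPN against 20.4, 21.3, 18.8 and 15.2 CPM with vehicle. Its BAPN rats were tightly grouped and all higher (log2 fold change 0.49, SE 0.13, edgeR FDR 0.0349). Tnip1, a partner of A20, had a log2 fold change of 0.07 (edgeR FDR 0.750).

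Of 9 tested TNF receptors and their adaptors, 2 rose and both encode cellular inhibitors of apoptosis, ubiquitin ligases of the receptor complex. Birc3 was at 23.9, 28.3, 31.96 and 21.2 CPM with BAPN against 12.1, 19.4, 16.0 and 15.3 CPM with vehicle (log2 fold change 0.75, SE 0.20, edgeR FDR 0.0277). Birc2 was at 74.6, 90.2, 75.0 and 93.9 CPM against 59.5, 66.3, 61.4 and 52.6 CPM (0.48, SE 0.12, edgeR FDR 0.0289). Neither gene overlapped between the groups. The receptor Tnfrsf1a itself averaged 215 ± 15.9 CPM with BAPN against 225 ± 26.5 CPM with vehicle (−0.07, edgeR FDR 0.721).

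Of 5 tested interferon regulatory factors, Irf1 rose. Irf1 was at 102, 96.1, 87.2 and 78.2 CPM with BAPN against 46.6, 70.3, 63.6 and 64.3 CPM with vehicle, without overlap (log2 fold change 0.57, SE 0.15, edgeR FDR 0.0300). Irf7, a factor that acts below TLR7 and TLR9, had a log2 fold change of 0.74 that did not pass (edgeR FDR 0.287). BAPN rat 2 stood at 459.6 CPM and the other BAPN rats at 116 to 147 CPM, and without that rat the log2 fold change was 0.03 (edgeR FDR 0.953).

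Among 12 listed NF-κB target genes, 9 were tested and 2 rose, while Il6, Cxcl1 and Cxcl2 were under the count minimum. Sod2, the mitochondrial superoxide dismutase, was at 508, 368, 407 and 307 CPM with BAPN against 221, 277, 187 and 161 CPM with vehicle. Every BAPN rat was higher (log2 fold change 0.91, SE 0.21, edgeR FDR 0.0241), and with sex as a covariate Sod2 still passed (FDR 0.0334). Icam1, a leukocyte adhesion molecule, was at 146, 141, 141 and 138 CPM against 116, 121, 99.1 and 90.1 CPM (0.41, SE 0.12, edgeR FDR 0.0417), the BAPN rats lying within a narrow range above the vehicle rats. The other 7 tested targets did not pass in either direction.

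Some markers of other cell types passed the test as well, and the part of other cell types in the results was not tested. Of 11 macrophage markers 10 had a higher fitted level with BAPN and 1, Aif1, passed the test. T cell markers summed to 53.8 to 136 CPM with BAPN and 26.5 to 60.6 CPM with vehicle (2 of 7 rose), and neutrophil markers to 27.3 to 60.9 and 14.6 to 49.2 CPM (0 of 2 tested passed). B cell and plasma cell markers summed to 154, 194, 218 and 6.63 CPM in BAPN rats 1 to 4 and to 12.0 to 36.9 CPM with vehicle, and 2 of 3 tested rose. BAPN rat 4 was the lowest of all 8 rats on that sum. The endothelial sum was lower with BAPN without overlap, while of its 5 markers 2 (Vwf and Tek) fell and stood apart by rat and 3 overlapped, 4 of 6 smooth muscle markers fell, and 1 of 4 tested adipocyte markers fell (sums of 167 to 314 and 206 to 676 CPM). None of the 6 fibroblast markers passed (5 had a lower fitted level), nor did any of 3 tested Schwann cell and nerve markers, which summed to 31.9 to 240.4 CPM with BAPN and 25.6 to 69.6 CPM with vehicle. The sums of skeletal muscle markers were 16.1 to 29.8 and 17.0 to 69.4 CPM, and 0 of 2 tested passed.

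Relative to the summed macrophage markers, the group with the higher value was the same as for the level in 4 members (Tlr7, Tlr4, Rela and Tnfaip3) and the opposite in 5 (Tlr2, Tlr8, Myd88, Nfkb1 and Nfkbia). Expressed as a percentage of that sum, which does not depend on library scaling, 8 of the 9 members had a lower mean with BAPN, Tlr7 being the exception (1.55 ± 0.645% with BAPN, 1.13 ± 0.190% with vehicle, SD, n = 4). The sum itself averaged 4511 CPM with BAPN and 3459 CPM with vehicle, so a gene with an equal level in both groups has a lower ratio with BAPN, and 82.8% of all 11682 tested genes had a lower mean ratio. The count of 8 of 9 members lies near that share. The groups did not overlap, with lower ratios under BAPN, for 2 members and for 18.9% of all genes, and with higher ratios for 0 members and 0.676% of all genes. Rela stood at 1.91, 2.71, 2.31 and 2.40% with BAPN and 3.53, 3.10, 4.23 and 4.05% with vehicle, without overlap (exact permutation p = 0.0286). For Tnfaip3 the ratio was 0.626, 0.920, 0.688 and 1.04% against 1.16, 1.12, 1.36 and 1.05%, where the BAPN male and vehicle rat 4 nearly met (exact permutation p = 0.0286). Tlr4 was at 0.631 ± 0.0796% and 0.905 ± 0.168% with groups that overlapped (exact permutation p = 0.0571). The same p of 0.0571 in the exact permutation test was found for Tlr8 (2.30 ± 0.441% and 2.70 ± 0.0975%) and Nfkb1 (3.59 ± 0.450% and 4.43 ± 0.671%), both lower with BAPN and overlapping. The ratio of Myd88, whose level was higher with BAPN, was 2.24 ± 0.156% and 2.37 ± 0.347% (exact permutation p = 0.571). These are 9 tests without adjustment, and most members are also made by cells other than macrophages.

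**Figure D4:**
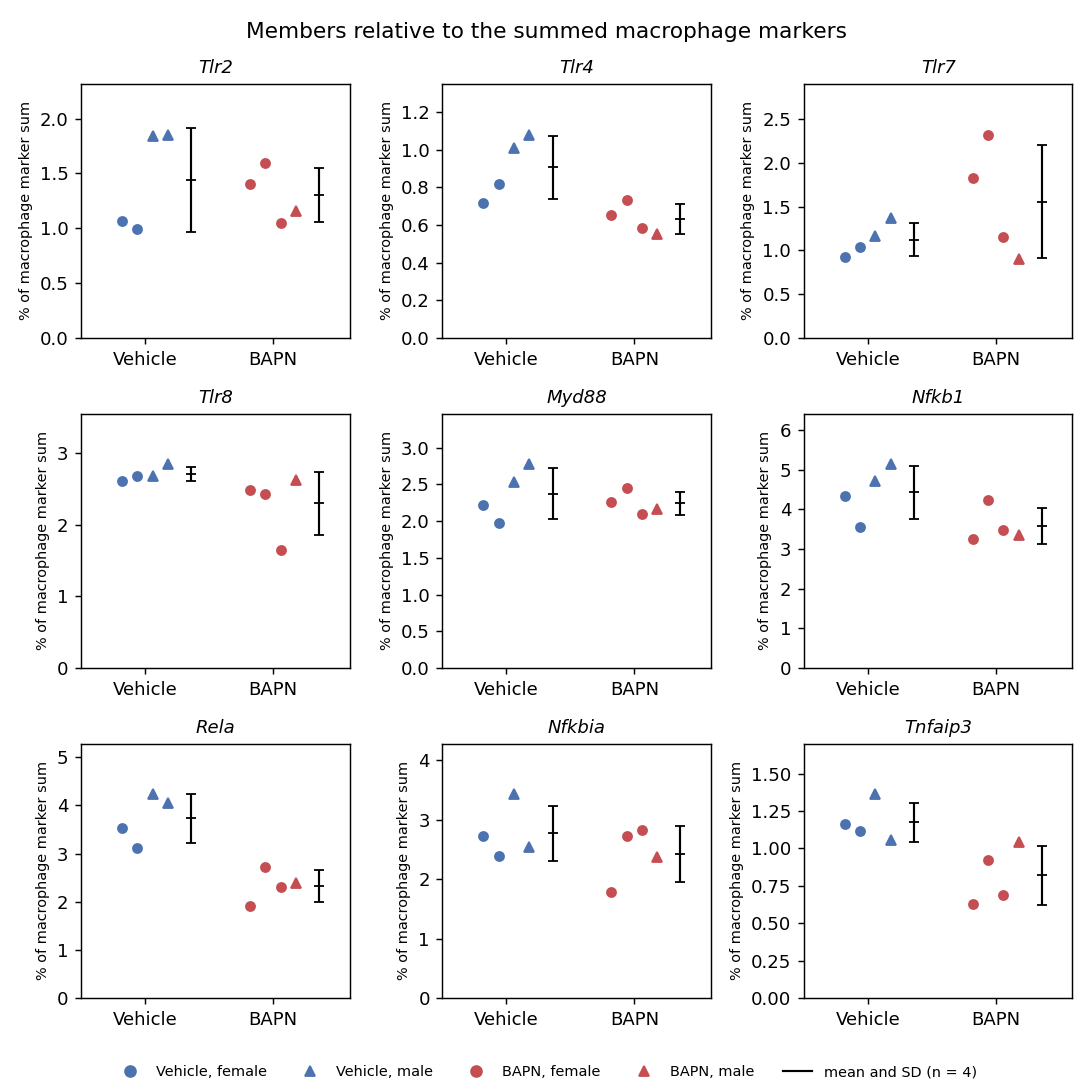
Each tested member as a percentage of the summed CPM of 11 macrophage markers, by rat, on axes from 0. Circles are female and triangles male rats, and bars are the mean and SD of 4 rats. Among the 9 members, Rela and Tnfaip3 have groups that do not overlap, both lower with BAPN (18.9% of all genes do so), and Tlr7 has a higher BAPN mean while 82.8% of all genes have a lower one.

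The members were also compared with all other tested genes by the correlation of log2 CPM over the 8 rats after each group mean was removed. This describes which genes varied together among rats of the same treatment in the same libraries. Each value is the highest found among all tested genes over only 8 rats, and no chance value was computed. For Tlr7 the nearest genes were Dsg3 (r = 0.98), Spata2 (0.96) and Adgre1 (0.95), the last of which encodes the macrophage protein F4/80. Adgre1 was at 182, 162, 100.04 and 86.3 CPM with BAPN against 87.4, 118, 105 and 124 CPM with vehicle, so BAPN rats 1 and 2 were the highest for it as they were for Tlr7. Dsg3, a desmosomal cadherin of keratinocytes, had 925 and 694 reads in those same rats and 0 to 13 in the other 6. It met the count minimum only through these 2 rats, so its r restates that Tlr7 was high in them.

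For Nfkbia the nearest gene was Malt1 (r = 0.99), a paracaspase that feeds into NF-κB, followed by Pcbd2 (0.98) and Cyc1 (0.97). For Tnfaip3 they were Stx3 (1.00), Plekhh1 (0.98) and the macrophage secreted protein Cd5l (0.98). Tlr4 was nearest to Lmnb1, Mdc1 and Mmp7 (0.95 to 0.96), and Tlr2 to Rad54l2, Elf1 and Adra2a (0.95 to 0.96). Tlr8 was nearest to Tanc2, Rb1 and Plekho2 (0.98 each). The nearest genes of Myd88 were Tecpr2, Notch2 and Pcnt (0.95 to 0.97), those of Nfkb1 were Eif3b, Nomo1 and Cd274 (0.96 to 0.97), and those of Rela were Tubb6, Zfand2a and Hivep1 (0.95 to 0.97). Between members the closest pair was Rela with Tnfaip3 (0.91), and Tlr8 with Myd88 followed (0.87).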

How the data were processed

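Total RNA from whole veins of 8 rats was depleted of ribosomal RNA and sequenced as stranded libraries. The authors deposited raw read counts per gene, 1 table per rat, with gene symbols. The submitters' processing notes name bcl2fastq 2.17, Trim Galore and STAR. The counting tool, its strand setting and the genome build are not given in the sources used here. Groups, replicate numbers and sexes came from the sample labels. Replicates are separate rats.

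Counts were scaled by TMM and the 11682 of 32623 genes whose base mean was 100 or more were tested with edgeR 4.0.16 (quasi-likelihood, treatment only, two-sided, Benjamini-Hochberg over all tested genes). SEs and 95% intervals came from limma 3.58.1 (voom), and DESeq2 1.42.0 was an alternative. For log2 CPM a prior count of 2 was added. Single genes were compared by exact two-sided permutation over 70 arrangements. In simulated counts for this comparison, 200 of 11682 genes carried a log2 change of 1.5, of which edgeR found 170 with 10 false calls and DESeq2 188 with 43 false calls. That change is larger than the fitted change of any member (at most 0.87). Recovery at the sizes of the members was not measured. No pair of libraries of the same group agreed within sampling noise.

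Members and lists were chosen with earlier results of these data known. Named genes were the members, the called genes of each role of the wider list (at most 4), the gene of each role with the highest mean CPM (used only to select, since gene lengths were not known), and the 3 genes nearest to each member by within-group correlation. Tlr10, Tlr13, Ly96 and Ticam1 had no matching symbol, and Tlr12 and Map3k7 were under the count minimum. Alternatives were other scaling, filters, sex as a covariate, females alone, a replicate block, equal library totals, DESeq2 and each rat left out. DESeq2 with sex as a covariate was chosen after seeing the data. Limits at 3 reads cover counting error only.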

Additional observations from a re-analysis of the deposited data

Results flagged for a closer look

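Irf7 in the BAPN group stood out because BAPN rat 2, at 459.6 CPM, was far above the other 3 rats, which lay between 116 and 147 CPM. The gap was 0.909 of the range of the group, past the 95% critical value of Dixon's test for 4 samples. Of 52 groups examined this was the only such case, and chance gives about 1 in 20.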

How the results depend on the processing

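Of the members, edgeR called 0 with every other scaling, filter and covariate tried, with equal library totals and among females alone. The shares of all genes called were 16.5% (median-of-ratios scaling), 14.3% (total counts) and 12.7% and 7.54% (other filters). They were 7.96% with sex, 4.76% with the replicate block, 16.5% with equal totals and only 0.762% among females alone. DESeq2 called 3 (Tlr7, Myd88 and Rela; 27.4% of all genes), DESeq2 with sex as a covariate 1 (Rela; 21.5%), and leaving out single rats gave 0 to 1 (Tlr7, without BAPN rat 4; 7.76%). For the wider list of 73 genes, where the main count was 12, DESeq2 called 20 (27.4% of the list and of all genes), scaling by total counts 5 (14.3% of all genes), no filter on low counts 7 of 78 (7.54%), sex as a covariate 1 in edgeR (7.96%) and 15 in DESeq2 (21.5%), and females alone 1 (0.762%), and leaving out single rats gave 0 to 16. Directions turned among females alone for Tlr8 (−0.12), Ikbkb (−0.0078), Tnip1 (−0.16) and Tnfrsf1a (0.087), and for Tnfrsf1a also on leaving out single rats (−0.13 to 0.010, the latter without vehicle rat 4). The cause was not tested. The deviations of same-numbered rats from their group means correlated at r = 0.09, −0.26, 0.27 and −0.14. These few values cannot settle whether the replicate numbers pair the rats. With the replicate block edgeR called 0 members and 1 gene of the wider list (Sod2). With 4 rats per group, library depth that differs between the groups and 1 BAPN male, the edgeR FDRs of Tlr7, Myd88 and Rela (0.0568, 0.0666 and 0.0785) lay near the threshold, and their calls changed with the tool.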

Other observations

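Map3k7, which encodes the kinase TAK1, is named after its values were seen. It had 25, 20, 26 and 30 reads in BAPN rats 1 to 4 and 1, 2, 2 and 2 reads in vehicle rats 1 to 4, which is 0.516, 0.393, 0.597 and 0.623 CPM against 0.0466, 0.0984, 0.0838 and 0.0951 CPM. It was under the count minimum and was not tested in the main comparison. The fits with other filters on low counts included it, and their result for it is not given here. Whether the gene model that was counted covers the whole Map3k7 transcript is not given in the sources used here.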
